A study of Danio rerio with 6 samples.

Results

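The genes described here are pax6a and pax6b, the pair of zebrafish Pax6 paralogs, in the brains of aged females. Every target that carried either name in the 14th annotation field of the array files was taken. That gave 9 of 38489 targets, 5 for pax6b and 4 for pax6a, a target being a transcript measured by up to 3 probes. The 9 targets hold 27 of 113549 single probes. Lead brains came from AB strain females held in 100 ppb lead acetate from under 2 until 72 hours after fertilization, then raised in clean water to 12 months. Control brains came from AB females of the same age handled alike at 0 ppb. Each group has 3 arrays, labelled as replicates of dissected brain on one-colour Cy3 arrays, and nothing says whether a replicate is 1 fish or several; each is called a brain here. The p-values measure only the spread between these samples. The pair was chosen by its lead and control signal in these same arrays, which was already known to be higher in lead brains. All lead-minus-control values of pax6a and pax6b below are therefore a description, with no test, and support nothing beyond themselves.

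Pax6 proteins are transcription factors that bind DNA through a paired domain and a homeodomain. They are required for the eye, for patterning of the forebrain and for the endocrine pancreas. In the mouse cerebellum Pax6 marks granule cells and their precursors, and in the mouse cortex it marks radial glia that make glutamatergic neurons. Teleost fish kept 2 copies after their genome duplication, and loss of pax6b in zebrafish gives small eyes with lens defects.

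Target intensities were deposited on a linear scale after robust multi-array averaging (RMA), and the arrays' medians lay between 2101 and 2212. The background line of an array was the 95th percentile of its 27114 random control probes, an intensity of 948 to 1312. It was exceeded by 59.8% to 66.7% of targets. All 9 measured genes of a neuron list, among them the synaptic snap25a and the cytoskeletal stmn2a, lay above it on every array. One-channel images of the 6 arrays came from 1 scan per the file names, with lead brains at crop positions 7 to 9 and controls at 10 to 12, so position and group cannot be told apart. Genes of the pituitary stood apart in 1 brain, with summed intensities of 14340 to 24827 in lead brains and 15135 to 96778 in controls, the highest in control replicate 1. Fewer cells of a type and less RNA per cell cannot be told apart in brain tissue.

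Signal from both paralogs was higher in every lead brain than in every control brain in 8 of the 9 targets. Such a separation in this direction was seen in 5.74% of all targets, and since the genes were picked for this contrast nothing is read from it. Lead brains had 1.43-fold to 3.33-fold the control signal in these 8 targets. The ninth, a pax6b target near the background line, did not separate the groups. Differences are given in log2 units, lead over control. The standard error beside them was estimated by limma from n = 3 arrays per group, except for averages over targets or probes.

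Among pax6b targets, OTTDART00000022987 lies on chromosome 7 from 6303242 to 6310127, in coordinates of an assembly not given in the sources used here. Its intensity was 11659, 10884 and 19442 in lead replicates 1, 2 and 3, against 2762, 6453 and 3759 in control replicates 1, 2 and 3. The lead brains did not overlap the controls, and the difference was 1.73 ± 0.36. OTTDART00000022985 (chromosome 7, 6298589 to 6324287) had 11586, 9957 and 18045 in lead brains, against 2882, 7598 and 3681 in controls. The groups again did not overlap, with the closest pair lead replicate 2 and control replicate 2, and the difference was 1.56 ± 0.39. OTTDART00000022988 (6298589 to 6310127) had 14306, 13054 and 20910 in lead brains, against 4072, 8899 and 4980 in controls, a difference of 1.48 ± 0.32. These transcripts overlap on the genome, so they are readings of 1 gene and not separate replicates.

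The remaining pax6b targets differed less. OTTDART00000022984, with the same span as OTTDART00000022985, was the brightest, at 40667, 39971 and 46404 in lead brains, against 24562, 37592 and 27931 in controls. Its groups were separated by 0.09 log2 only and its difference was 0.52 ± 0.18. OTTDART00000022986 (6302884 to 6310127) had 1301, 1125 and 1157 in lead brains, against 1222, 1167 and 1100 in controls. It lay above the random probes on 4 of the 6 arrays, its groups overlapped, and its difference was 0.04 ± 0.13. The 3 probes of this target carry the numbers 1, 15 and 29 in their names, read here as positions in the transcript, so all sit at one end of it. Its whole genomic span lies inside that of OTTDART00000022988.

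The 4 pax6a targets lay on chromosome 25 in the same coordinate set and were closer to each other. OTTDART00000024640 (10822525 to 10833232) had 9706, 9089 and 14989 in lead brains, against 3533, 6099 and 4325 in controls, a difference of 1.28 ± 0.27. OTTDART00000024641, with the same span, had 19073, 18051 and 26877 in lead brains, against 6456, 11341 and 10312 in controls, a difference of 1.21 ± 0.26. In both targets the lowest lead brain lay well over the highest control, by 0.58 and 0.67 log2. OTTDART00000023007 (10812520 to 10833232) had 12287, 9525 and 15856 in lead brains, against 3405, 7174 and 6316 in controls, a difference of 1.2 ± 0.32. OTTDART00000023008, with that same span, had 16412, 17866 and 26495 in lead brains, against 7041, 13252 and 11297 in controls, a difference of 0.96 ± 0.29. All pax6a targets lay above the random probes on all 6 arrays.

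**Figure D1:**
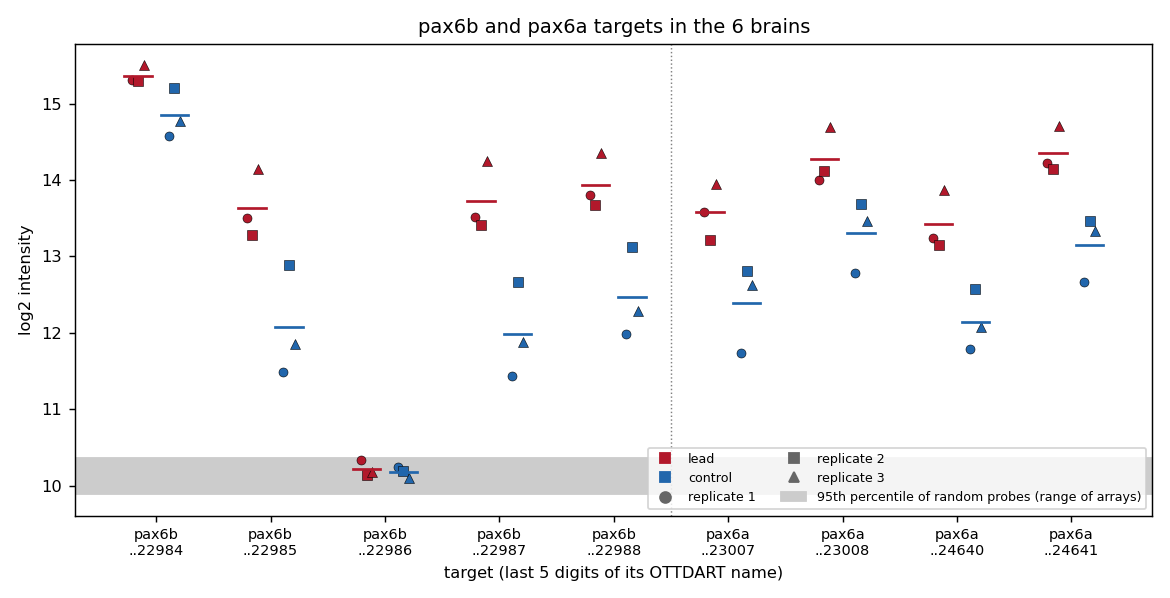
Log2 intensity (vertical axis) of the 5 pax6b and 4 pax6a targets, with lead brains left of controls, marker shape for the replicate number, short lines for the mean of 3 brains and a grey band for the range of the random-probe line over arrays. Lead and control brains do not overlap in 8 targets, and OTTDART00000022986 lies in the grey band.

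The authors' deposited table of 94 altered targets lists 3 of the 5 pax6b members and 0 of the 4 pax6a members. In the authors' deposited table OTTDART00000022987 stands at 3.327-fold, OTTDART00000022985 at 2.956-fold and OTTDART00000022988 at 2.786-fold, and the log2 ratios there equal those computed here to 2 decimals (1.73, 1.56 and 1.48). The smallest fold in the authors' deposited table is 1.501 and its largest p-value is 0.05. All 4 pax6a targets were past that fold, at 1.95 to 2.42. The test behind the authors' deposited table is not given in the sources used here, and why it lists no pax6a target was not tested.

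A pair of targets outside the naming rule also carries the homologue name PAX6. ZV700S00005507 (Zv7 chromosome 7, 8612757 to 8614259) had 14587, 10759 and 27334 in lead brains, against 2976, 9026 and 4649 in controls, a difference of 1.70 ± 0.48. ZV700S00005508 (8611744 to 8612685) had 11629, 9945 and 22204 in lead brains, against 2369, 7762 and 3945 in controls, a difference of 1.72 ± 0.48. Both share a UniGene cluster with pax6b and rank the 6 brains as OTTDART00000022987 does. In the authors' deposited table they stand at 3.25-fold and 3.283-fold. The paired box target ENSDART00000075395, which the files name LOC557147, was at 0.02 ± 0.19.

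Single probes gave the same picture with more detail. Of the 27 probes, 21 lay above the random probes on all 6 arrays, 10 for pax6b and 11 for pax6a. In 20 of these 21 all lead brains exceeded all controls, a pattern seen in 6.14% of all probes above the random line, and nothing is read from the comparison because it is the contrast the genes were picked for. The exception was probe 1224 of OTTDART00000022984, where control replicate 2 (40547) exceeded lead replicate 2 (39186). Lead brains had at least 2-fold the control signal in 14 of the 21, against 0.308% of all such probes, in the same contrast. The range ran from 0.43 to 1.96 for pax6b and from 0.86 to 1.79 for pax6a.

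Among the 21 probes above the random probes on all 6 arrays, brighter probes had smaller differences. Over these 21 the difference and the mean log2 intensity had a Pearson r of -0.72 and a Spearman rho of -0.75. Over all 27 probes r was -0.02 and rho -0.32. Over the 24 probes outside OTTDART00000022986, other dim ones included, r was -0.7 and rho -0.79. All these values are descriptions over probes that share 6 arrays and 2 genes. Within OTTDART00000022984 itself, probe 537 had 11298, 8716 and 16572 in lead brains, against 2314, 5148 and 2627 in controls, a difference of 1.90 ± 0.37. The other probes of that target, 1136 and 1224, averaged 44198 and 42086 in lead brains, against 32290 and 31731 in controls, and differed by 0.47 ± 0.19 and 0.43 ± 0.22. These lay at the 98.7th and 98.5th percentile of all probes, where the brightest value on any array was 61925. For pax6a the brightest probes, 851 of OTTDART00000024641 and 1412 of OTTDART00000023008, differed by 0.86 ± 0.18 and 0.87 ± 0.22. Probe 110 of OTTDART00000024640, a dimmer one, differed by 1.79 ± 0.44.

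**Figure D2:**
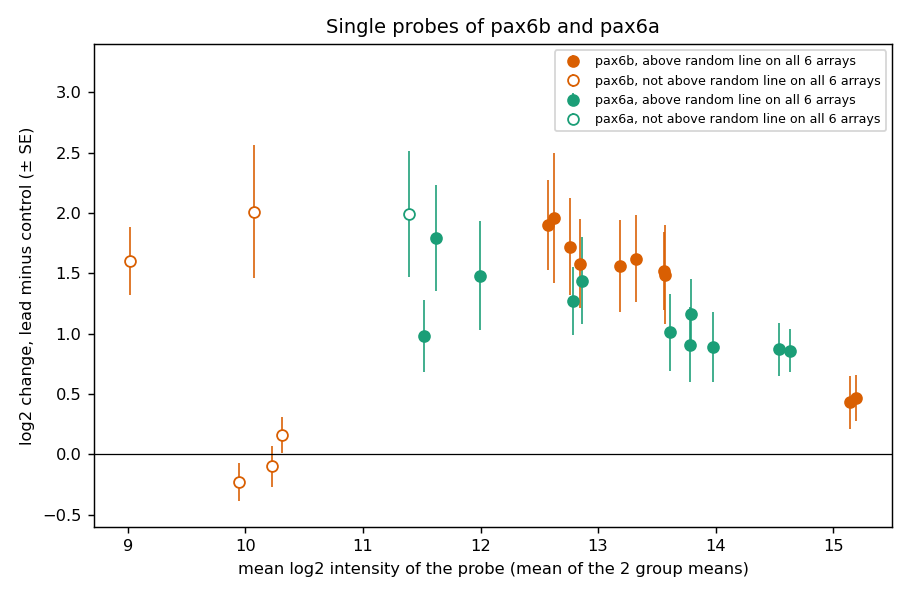
Difference of each of the 27 single probes (vertical axis, log2, lead minus control, bars for the standard error, n = 3 arrays per group) against the probe's mean log2 intensity. Filled points lie above the random probes on all 6 arrays; the difference is smallest, at 0.43 and 0.47, in the 2 brightest pax6b probes, and the 3 open points near 0 belong to OTTDART00000022986.

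The dim probes split. Those of OTTDART00000022986 differed by -0.23, 0.16 and -0.10. Probe 273 of OTTDART00000022987 had 1669, 1473 and 4107 in lead brains, against 360, 1086 and 392 in controls, and its difference was 2.01 ± 0.55. Probe 89 of OTTDART00000022988 lay under the random line on every array, at a mean of 907 in lead brains and 313 in controls, yet its groups did not overlap. Probe 1519 of OTTDART00000024641 was the dim pax6a probe, above the line on 5 arrays, with a difference of 1.99 ± 0.52.

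The order of the brains within each group was not used in choosing the genes, and it was shared across both paralogs. Among controls, replicate 2 was higher than replicate 3, and replicate 3 higher than replicate 1, in 24 of the 24 probes outside OTTDART00000022986. That order held in 19.7% of all single probes, and in 20.0% of all targets. Among lead brains replicate 3 was highest in 8 of the 8 targets outside OTTDART00000022986, where 30.3% of all targets had it highest, and in 23 of these 24 probes. The one exception was probe 253 of OTTDART00000023007, with 4887, 4268 and 3332 in lead replicates 1, 2 and 3. These probes carry the names of 2 genes and were read in the same 6 RNA samples, so they are not independent observations. Probe sequences were not in the sources used here. Whether probes of 1 paralog also read RNA of the other was therefore not checked.

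Averaged over the 4 pax6b targets above the random probes, the log2 level was 14.03, 13.91 and 14.56 in lead brains, against 12.38, 13.47 and 12.69 in controls. Its range was 0.65 among lead brains and 1.09 among controls, and the closest lead and control brains were replicate 2 of each group. For the 4 pax6a targets the level was 13.76, 13.66 and 14.31 in lead brains, against 12.24, 13.14 and 12.87 in controls, with ranges of 0.65 and 0.90. The pax6b difference was 1.32 ± 0.38 and the pax6a difference 1.16 ± 0.33 (means of 14.17 and 12.84 for pax6b, and 13.91 and 12.75 for pax6a, in lead and control brains). These standard errors came from the variance of the averaged levels within each group, without limma. Over all 5 pax6b targets the difference was 1.07. Leaving out control replicate 1, the lowest control, gave 0.89 for pax6b over these 5 targets and 0.90 for pax6a. Without control replicate 2 the values were 1.32 and 1.35.

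Set against each other, the signals under the 2 paralog names moved together from brain to brain. Binding of probes across the paralogs was not checked. As deviations from the group mean, pax6b stood at -0.14, -0.26 and 0.39 in lead brains and at -0.47, 0.62 and -0.15 in controls. The pax6a deviations were -0.15, -0.25 and 0.40 in lead brains and -0.51, 0.39 and 0.12 in controls. Lead brains gave nearly the same numbers for both genes, while control replicates 2 and 3 set them apart. Over the 6 arrays the profiles had a Pearson r of 0.98, and the deviations an r of 0.92, given as a description. Between single targets above the random probes, r was 0.96 to 1.00 for the 12 pairs of the same gene and 0.94 to 1.00 for the 16 pairs across genes.

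**Figure D3:**
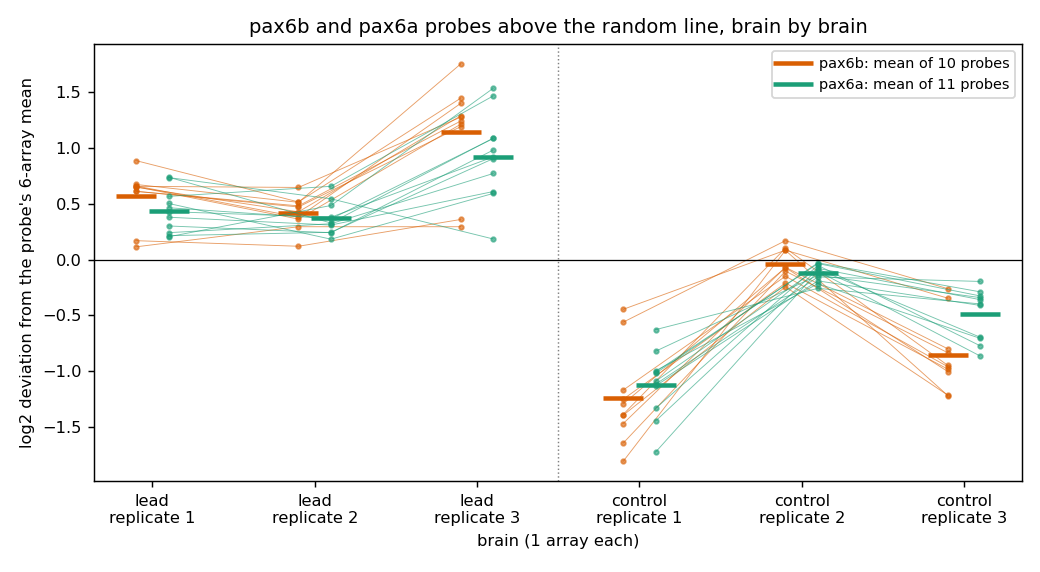
Log2 deviation of each pax6b (10) and pax6a (11) probe above the random probes from its own 6-array mean (vertical axis) in each brain, lead left of control, with thin lines joining the values of 1 probe and thick bars for the mean over probes. Both paralogs are lowest in control replicate 1 and, but for 1 pax6a probe, highest in lead replicate 3.

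The pax6b difference minus the pax6a difference was 0.16 ± 0.15 over targets above the random probes, and -0.09 ± 0.14 when the dim pax6b target was counted in, so its direction rests on that target. Standard errors here and of the probe means that follow were again taken from the group variances, without limma. With the 2 brightest pax6b probes left out, the mean over probes was 1.67 ± 0.48 for pax6b (8 probes) and 1.15 ± 0.34 for pax6a (11 probes). That cut was set after the values were seen. It took out the smallest differences (0.47 and 0.43) among pax6b probes above the random probes, and no pax6a probe, which by itself raises pax6b over pax6a. In the intensity range that the 8 pax6b probes cover, log2 12.57 to 13.57, they differed by 1.49 to 1.96. Only 2 pax6a probes fell in that range, at 1.27 and 1.44. The range was set after the values were seen, and brightness and gene cannot be told apart over so few probes.

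The nearest named gene on each chromosome, elp4 for pax6b and wt1a for pax6a, had a smaller difference than the pax6 targets that separated the groups. The closest target to pax6b was elp4, 9141 bases from it on chromosome 7 (OTTDART00000022983, 6333428 to 6423060). This gene encodes a subunit of the Elongator complex, and in mammals its introns hold enhancers of PAX6. It was at 0.15 ± 0.12, with 4298, 4445 and 4147 in lead brains, against 3978, 3746 and 3858 in controls, so its groups did not overlap either. Within 500000 bases of the pax6b targets, 0 of 3 targets had an unadjusted p under 0.05 in limma. Around pax6a there were 14 targets, with a median of -0.05 and a range of -0.81 to 0.42, of which 0 were higher and 2 lower at an unadjusted p under 0.05, against 2.57% of all targets higher and 1.83% lower. The 2 lower targets carry no gene name and lay near each other, 398583 and 406808 bases from pax6a. They were at -0.73 ± 0.21 and -0.81 ± 0.21. The Wilms tumour gene wt1a, 91119 bases from pax6a, was at 0.05 ± 0.23 and lay under the random probes on all arrays. The phosphodiesterase gene mpped2, 290328 bases away, was at 0.12 ± 0.17.

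Related genes were read from lists drawn up with earlier results of these data known, each gene by its brightest target. No gene of any list passed the adjusted threshold of 0.05 in limma, as 0 of 38489 targets did, while 1696 targets, or 4.41%, had an unadjusted p under 0.05. Over the 9619 genes with a symbol, 3.05% were higher and 1.24% lower at an unadjusted p under 0.05, with a median of 0.03.

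Among other Pax genes, 6 of 13 were measured. None was higher or lower at an unadjusted p under 0.05, and their median was -0.23. Only pax5, of the midbrain-hindbrain boundary, and pax7a, of the dorsal midbrain, lay above the random probes on all 6 arrays, at 0.20 ± 0.21 and -0.62 ± 0.64. For pax7a, lead brains had 3688, 15539 and 3033, against 5213, 12866 and 9383 in controls, with no separation between groups. Of 37 eye development regulators, 3 were higher and 0 lower at an unadjusted p under 0.05, with a median of 0.05. They were dacha (0.41 ± 0.14) and dachc (0.36 ± 0.15), of the Dachshund family, and eya3 (0.36 ± 0.13), a partner of Sine oculis homologues. Their relatives on the list did not share this difference. There eya1 was at -0.86 ± 0.40, eya4 at -0.81 ± 0.47, eya2 at -0.07 ± 0.20 and dachb at 0.10 ± 0.20. Both eya1 and eya4 were highest in control replicate 1.

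The cerebellar granule cell list had the highest median of the lists, 0.59. Of its 17 measured genes, 15 had higher and 2 lower values, where 57.8% of all genes had higher values, and 9 were higher and 0 lower at an unadjusted p under 0.05 in limma. The count of 9 was 3 in the ordinary test without moderation. Without lead replicates 1, 2 and 3 in turn it was 4, 5 and 3. Leaving out control replicates 1, 2 and 3 in turn gave 5, 10 and 3. The list also holds genes of the midbrain-hindbrain boundary, such as fgf8a and the engrailed genes.

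The homeobox gene barhl1a, expressed by granule cells in mouse, had 11748, 11079 and 10701 in lead brains, against 1325, 8153 and 3441 in controls, a difference of 1.74 ± 0.59. Here too control replicate 2 lay nearest the lead brains and control replicate 1 farthest. The signalling ligand gene fgf8a had 5256, 5300 and 6977 in lead brains, against 1377, 4394 and 2219 in controls, a difference of 1.29 ± 0.40. The zinc finger gene zic2a had 37197, 32968 and 38354 in lead brains, against 19633, 28703 and 18370 in controls, a difference of 0.73 ± 0.20. The potassium channel gene kcnd2 was at 0.49 ± 0.17, with control replicate 1 the highest control (adjusted p = 0.958 in limma for each of these 4 genes).

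A pair of its genes was picked out after their values were seen. The synaptic organizer gene cbln1 was at 0.08 ± 0.13, with 14842 to 17625 in lead brains and 14182 to 15296 in controls, and the GABA receptor subunit gene gabra6a at -0.13 ± 0.14. The summed intensity of the list was 219677, 208570 and 212451 in lead brains, against 112563, 189112 and 123563 in controls. It ranked the controls as pax6 did, but not the lead brains, where pax6 was highest in replicate 3. The lead sums lay close together, and single genes differed in order. Both fgf8a and zic2a were highest in lead replicate 3, and barhl1a and kcnd2 in lead replicate 1. The sums of the glutamatergic, Purkinje cell, Pax family and retina lists ranked the controls in the pax6 order too. The retina sums lay close together, at 12286, 12692 and 12569 in control replicates 1, 2 and 3, with 24 of 27 genes under the random line on all arrays. In the same controls pax7a alone had 5213, 12866 and 9383 of Pax family sums of 9655, 16756 and 14539. Gene by gene, the control order of pax6 held in 8 of 17 granule cell, 8 of 17 glutamatergic and 5 of 10 Purkinje cell genes, where 19.0% of all genes had it. It held in 3 of 9 neuron, 6 of 27 retina and 7 of 37 eye regulator genes, and in 0 to 2 genes of each remaining list. The part of these markers in the pax6 difference was not tested.

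**Figure D4:**
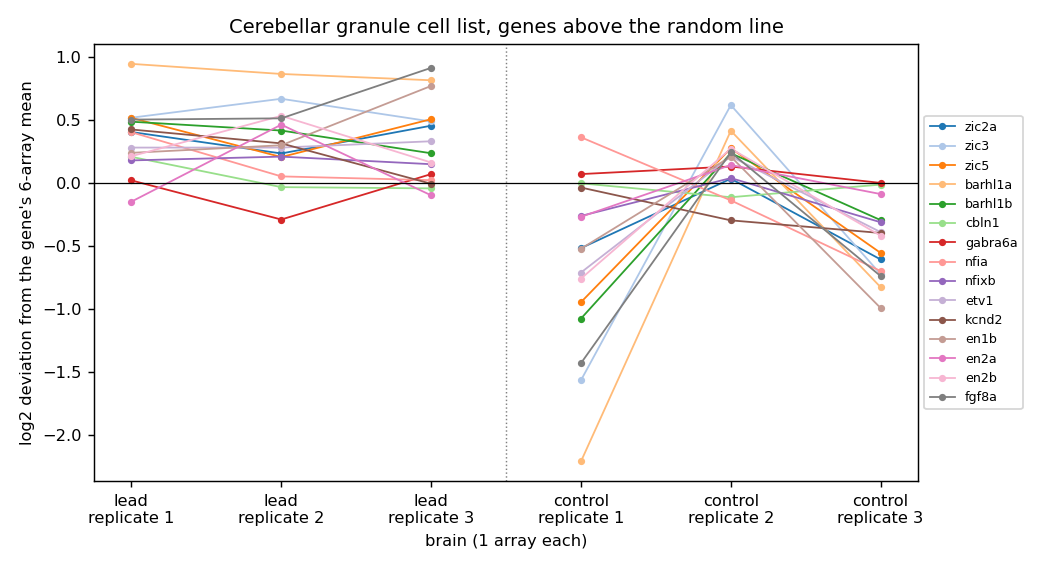
Log2 deviation from the 6-array mean (vertical axis) in each brain for the 15 cerebellar granule cell list genes above the random probes, lead left of control, with lines joining the values of 1 gene. Of the 15 genes, 8 are lowest in control replicate 1, while cbln1 and gabra6a stay near 0.

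Purkinje cells, the output neurons of the cerebellum, gave a lower median of 0.15 over 10 genes, with 1 higher at an unadjusted p under 0.05. That gene was ca8 (0.66 ± 0.26), while the Purkinje marker pvalb7 was at 0.11 ± 0.12. The glutamatergic cascade, in which Pax6 acts upstream in mouse cortex, had 17 measured genes with a median of 0.15, of which 3 were higher at an unadjusted p under 0.05. The T-box gene eomesb, a homologue of Tbr2, had 1847, 1605 and 1786 in lead brains, against 236, 1279 and 349 in controls, and lay above the random probes on 4 arrays. The vesicular glutamate transporter gene slc17a7a had 21572, 18305 and 21102 in lead brains, against 6753, 16970 and 7337 in controls, a difference of 1.1 ± 0.35. The third, insm1a, lay under the random probes on all arrays. The transporters slc17a6a and slc17a6b were at -0.11 ± 0.14 and -0.10 ± 0.16.

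Olfactory bulb and subpallial genes had a median of 0.10 over 16 genes with none at an unadjusted p under 0.05, for example sall3b (-0.35 ± 0.28) and sp8b (0.23 ± 0.22), both transcription factor genes. Radial glia genes had a median of 0.03 over 10, and hopx, at -0.66 ± 0.24, was lower at an unadjusted p under 0.05 and above the random probes on the 3 control arrays only. The radial glia marker fabp7a was at 0.28 ± 0.19. Endocrine pancreas genes had a median of 0.00 over 8.

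Eye and pineal also express pax6. Of 27 photoreceptor, lens and pineal genes, 0 lay above the random probes on all 6 arrays and 24 never exceeded them. The 2 genes higher at an unadjusted p under 0.05, opn1lw1 and rs1a, had intensities of at most 529 and 825 in lead brains and at most 396 and 812 in controls, all below every array's line. Summed intensities were 11821 to 13691 in lead brains and 12286 to 12692 in controls. The pineal enzyme gene aanat2 lay above the line on 3 arrays, at -0.15 ± 0.31. Red blood cell genes were lower in lead brains in 9 of 9, with a median of -0.92 and summed intensities of 97437, 47480 and 59369 in lead brains, against 112770, 102290 and 110648 in controls. Of the 9, 6 were lower at an unadjusted p under 0.05. Among controls the summed blood signal ran replicate 1 over 3 over 2, the reverse of the pax6 order. These control sums lay close together, and single genes differed in order. The bright hbaa1 and ba1l were highest in control replicate 3, and alas2 and epb41b in control replicate 1. Among lead brains the summed blood signal also ran replicate 1 over 3 over 2, where pax6 was highest in replicate 3. The part of blood in the pax6 difference was not tested.

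**Figure D5:**
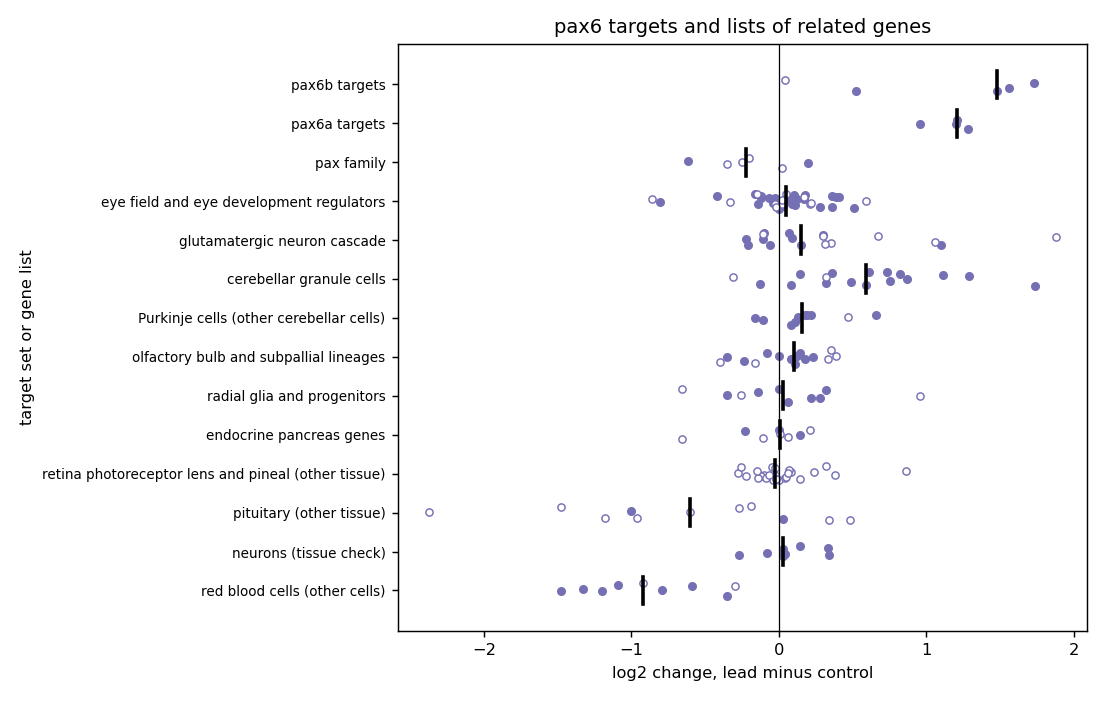
Difference between lead and control brains (horizontal axis, log2) for the pax6b and pax6a targets and for each gene of 12 lists, with a black bar at the median. Filled points lie above the random probes on all 6 arrays; the granule cell list has a median of 0.59 and the other lists have medians of -0.92 to 0.15.

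Genes with the profile most like pax6 were ranked by Pearson r over the 6 arrays among 6216 genes above the random probes on every array. For pax6b the ranking gave nuf2, a kinetochore gene (0.985), cmtr1, an mRNA cap methyltransferase gene (0.981), fgf8a (0.975), trnt1, a tRNA nucleotidyltransferase gene (0.968), zgc:77650 (0.968) and ncaph2, a condensin gene (0.967). For pax6a it gave usp9 (0.986), jade1 (0.978), gid8a (0.972), trnt1 (0.968), klhl7 (0.968) and atp2b3a, a calcium pump gene (0.967). The median r over all these genes was 0.12 for pax6b and 0.09 for pax6a, and 31 and 16 genes exceeded 0.95. Most of the named genes differed far less in size, from 0.12 ± 0.12 for atp2b3a to 0.43 ± 0.17 for nuf2, with fgf8a alone over 1. Ranked instead by deviations from the group means, which leave out the difference between groups, the closest to pax6b were fundc1 (0.997), ino80e (0.993), ctdsp2 (0.992) and prkar1aa (0.990). The closest to pax6a were per1a (0.994), cldnd1b (0.991), psap (0.991) and azin1b (0.988). In that ranking 47 and 52 genes exceeded 0.95 for pax6b and pax6a. The ranking depends on which names were accepted: with every symbol in the files, 8 of these 20 places kept their target.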

How the data were processed

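RNA of 6 female brain samples was measured on one-colour arrays. The authors deposited a linear RMA intensity per target (RMA per the submitters' processing notes, version not stated), with a standard error score per the file headers that was not used, and a table of single probe intensities. The authors' deposited table of altered targets holds a signed fold score, a log2 ratio and a p-value. Its 3 sheets hold the same values. Log2 was taken with no filter and no added constant. Targets were named by RefSeq accession or by a file symbol found in the RefSeq table of GRCz12tu, used for names only (12877 targets, 9619 symbols). All targets were fitted with limma 3.58.1 in R 4.3.3 (two-sided moderated test, Benjamini-Hochberg over 38489 targets, threshold 0.05), probes likewise. On simulated data for lead against control (38489 targets, 50 changed per size) the share recovered was 0% for 1.5-fold changes and 24% for 2-fold, then 64% (3-fold) and 80% (4-fold). The members and lists were chosen with earlier results of these data known. After results were seen, 3 further choices were made. Symbols were narrowed to those in the RefSeq table because protein entry names led the likeness ranking (15390 symbols before). The line for the brightest probes was moved to the 98th percentile because the 99th left out 0 pax6 probes. The intensity range for comparing paralogs was set. Named list genes were up to 4 with the smallest p among those above the random line on 3 arrays or more. Lists of other tissues also gave up to 3 of the highest mean. Outside this rule, cbln1, gabra6a, insm1a, slc17a6a, slc17a6b, emx3, rorb, snap25a and stmn2a were added after their values were seen. The same holds for opn1lw1, rs1a, eya1, eya2, eya4 and dachb. Nothing says whether samples of a group shared a clutch or tank. The small number of arrays limits the precision. Matplotlib 3.10.9 drew the plots; tables used numpy 2.4.6 and pandas 2.3.3 under Python 3.11.15. Alternatives tried were median polish of probes, quantile normalization, median centring, background subtraction, an intensity trend, the ordinary test, filters on dim targets, the replicate block and leaving out each array.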

Additional observations from a re-analysis of the deposited data

How the results depend on the processing

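The mean difference over targets was 1.07 for pax6b and 1.16 for pax6a, and ran from 0.89 to 1.32 and from 0.90 to 1.35 when 1 array was left out. Normalization, background and summary alternatives gave 1.07 to 1.1 and 1.15 to 1.19. The pax6b minus pax6a difference was -0.09 (-0.22 to -0.02 without 1 array) and turned to 0.16 over targets above the random line on all 6 arrays. Of 99 alternative values of single targets, 96 kept their direction and moved by less than 1 SD. The others were of OTTDART00000022986, near 0 (0.04), at -0.02 with median polish, -0.03 without lead replicate 1 and 0.00 without control replicate 3 (-0.03 to 0.08 without 1 array). The count of all targets at an unadjusted p under 0.05, 1696 in the fit reported, was 1063 to 3098 without 1 array (1063 without lead replicate 1, 1075 without control replicate 3, 3098 without control replicate 2), and 0 passed adjustment in limma in each of these fits, nor in the ordinary test (1655 unadjusted). The granule cell count of 9 was 3 in the ordinary test and 3 to 10 without 1 array, an alternative chosen after seeing the data, as was the count of 20 pax6 probes, 20 to 21 without 1 array. Deviations of lead and control arrays with the same replicate number correlated at 0.31, 0.03 and -0.05, and those with different numbers at -0.23 to 0.24. So few values cannot show whether the numbers mark pairs. The numbers were not taken as pairs in the fit reported. With every file symbol kept the granule cell count stayed 9 of 17, while the eye regulator and radial glia lists held 38 and 11 genes. With the replicate block the pax6b, pax6a and paralog differences stayed at 1.07, 1.16 and -0.09, and the counts were 2035 and 0 over all targets and 9 for granule cell genes.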

Other observations

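Some genes differed widely between single brains without separating the groups. The pallial homeobox gene emx3 had 669, 4853 and 462 in lead replicates 1, 2 and 3, against 349, 1047 and 451 in control replicates 1, 2 and 3. The nuclear receptor gene rorb, a member of the Purkinje cell list, had 4330, 10908 and 3930 in lead brains, against 2490, 8757 and 5425 in controls. Among controls these genes and pax7a had the order of pax6a and pax6b, with replicate 2 over 3 over 1. For emx3 only 1 lead and 1 control array lay above the random probes, so its order in controls rests on values near or under that line. Among lead brains they were highest in replicate 2, and pax6a and pax6b in replicate 3.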
